A study of Mus musculus with 29 samples.

Results

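Livers taken 3 days after ligation of the common bile duct (BDL) were compared with livers of sham-operated mice taken 3 or 7 days after surgery. The arrays were chosen by their titles: 5 arrays of ligated livers at day 3, and 6 sham arrays pooled as 1 control group, 2 of them from day 3 and 4 from day 7, 11 of the 29 arrays in the series. All mice were male C57BL/6N, 8 to 10 weeks old and on a standard diet. The titles mark them as wild type (wt), and the sham mice had surgery without ligation. Each array holds whole liver RNA on an Affymetrix chip, and titles carry different animal numbers. The tests therefore measure a spread between animals, 1 value per gene pooled over the groups of all 29 arrays. Pooling is needed because the day 3 sham group has 2 arrays, and it leaves part of the control group 4 days later after surgery than the ligated livers. The sign of each difference was therefore also read against the 2 day 3 shams alone.

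Ligation stops the flow of bile to the gut, so bile acids and other biliary solutes are held back in the hepatocytes and spill into blood. Hepatocytes are known to respond by lowering bile acid synthesis and uptake through the receptors FXR (Nr1h4) and SHP (Nr0b2), and by raising export across the basolateral membrane. Around the obstructed ducts, cholangiocytes divide, macrophages and neutrophils enter, and stellate cells turn into matrix-forming myofibroblasts.

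Values are log2 RMA intensities, a scale on which 1 unit is a 2-fold change, and the genes tested are those above 5 on that scale in 3 or more of the 29 arrays. A mean under 5 was not told apart from background. Differences are the mean of the ligated livers minus the mean of the 6 shams, given with their standard error (SE). They come from a limma fit over all 29 arrays, with two-sided p-values adjusted by Benjamini-Hochberg over 14699 genes and a threshold of 0.05. The array medians lay between 5.00 and 5.08 and the 55 pairs of the 11 arrays correlated across genes at 0.93 to 0.989. Arrays have no read depth, so their number limits the precision, and the median difference over all genes tested was 0.01. The 9 tested markers of hepatocytes averaged 12.46 to 12.62 in the ligated livers and 12.57 to 12.69 in the shams, and albumin (Alb) lay between 14.04 and 14.17 in all 11 arrays, with a difference of 0.02 ± 0.06 (SE; limma adjusted p = 0.842).

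Among the control arrays, 2 stood apart. Sham day 7 replicate 1 had the highest list mean of matrix genes of all 11 arrays, 8.17 against 6.99 to 7.35 in the other shams. Its mean of mesothelium markers was 6.06, against 5.31 to 5.64 in the other shams. Sham day 3 replicate 1 had low cholesterol synthesis genes, with a list mean of 8.23 against 9.13 to 9.61. Many results that rest on either array are given with and without it below. No gene passed the threshold between the day 3 and the day 7 shams in limma, while 627 of 14699 genes (4.27%) had an unadjusted p under 0.05. Without sham day 3 replicate 1 there were 35 such calls, and without sham day 3 replicate 2 there were 5.

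Ligation changed 2882 genes at day 3, 19.6% of those tested. Of these, 1719 genes (11.7%) were higher and 1163 (7.91%) lower than in the pooled shams. At least a 2-fold difference was seen for 278 of the higher and 163 of the lower genes. Ligated and sham arrays did not overlap for 1472 of the changed genes, while 1649 of all genes tested (11.2%) showed no overlap. Leaving out both control arrays that stood apart gave 2592 changed genes.

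The sign held against the day 3 shams alone for all 2882 changed genes. Those 2 arrays are part of the pooled control, so this count is not independent of the main comparison. Against them alone, 1396 of the 2882 genes also passed the threshold, as did 394 of the 441 genes with at least a 2-fold difference. With 1 day 3 sham left, the sign held for 2861 genes (without replicate 1) and for 2833 (without replicate 2). Against the 2 day 3 shams, limma called 1493 genes in all (10.2%), 951 higher (6.47%) and 542 lower (3.69%), and 97 of them were not called against the pooled shams.

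The largest rises and falls were ranked among changed genes without overlap by the difference of the group means, with each mean under the background level of 5 raised to 5 and predicted genes passed over. Of the 12 largest rises by this rule, Obp2a, an odorant-binding lipocalin, came first, although the differences of Sult1e1 and Chil3 are larger before their sham means are raised. It read 8.17, 10.02, 12, 11.84 and 10.94 in the ligated livers and had a sham range of 4.94 to 7.62 with a median of 5.98. The difference was 4.35 ± 0.69 (SE; limma adjusted p = 2.5e-05), and every ligated liver lay above every sham, by the least in ligated replicate 1. Sult1e1, the estrogen sulfotransferase, read 9.33, 7.19, 9.77, 8.93 and 9.35, against sham values of 3.49 to 4.86 (median 4.14) that lie at background. It was 4.79 ± 0.40 higher (limma adjusted p = 8.0e-10), and at least 3.92 higher when the sham mean is set to the background level of 5. Chil3, a chitinase-like lectin of activated macrophages, read 8.58, 7.33, 8.7, 9.14 and 9.39 against a sham range of 3.37 to 5.13 (median 3.73). Its difference was 4.60 ± 0.35 (limma adjusted p = 1.5e-10). Sprr1a, a cornified envelope protein induced in injured epithelia, rose by 4.01 ± 0.37 from a sham level at background (limma adjusted p = 4.6e-09). The ligated arrays were clear of the shams in all 4 genes, which the ranking required.

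The other 8 of the 12 largest rises follow, all without overlap because only such genes were ranked. Lcn2, the siderophore-binding acute phase lipocalin, was uniform in the ligated livers at 13.27, 12.93, 13.15, 13.16 and 13.02, while the shams ran from 8.7 to 12.01 around a median of 10.14. It rose by 2.83 ± 0.36 (limma adjusted p = 1.0e-06), and the spread lay in the shams. Orm3 (3.30), an acute phase glycoprotein whose family has near-identical copies, and Saa3 (2.97), an inducible serum amyloid, rose alongside it. Of macrophage genes, Gpnmb (3.40), a lysosomal glycoprotein of lipid-loaded macrophages, and Marco (2.83), a scavenger receptor, were among these 12. Cd14 (2.79), the lipopolysaccharide co-receptor, was counted here with the acute phase genes. The others were the chemokine Cxcl14 (2.96) and the cell cycle inhibitor Cdkn1a (3.02).

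**Figure D1:**
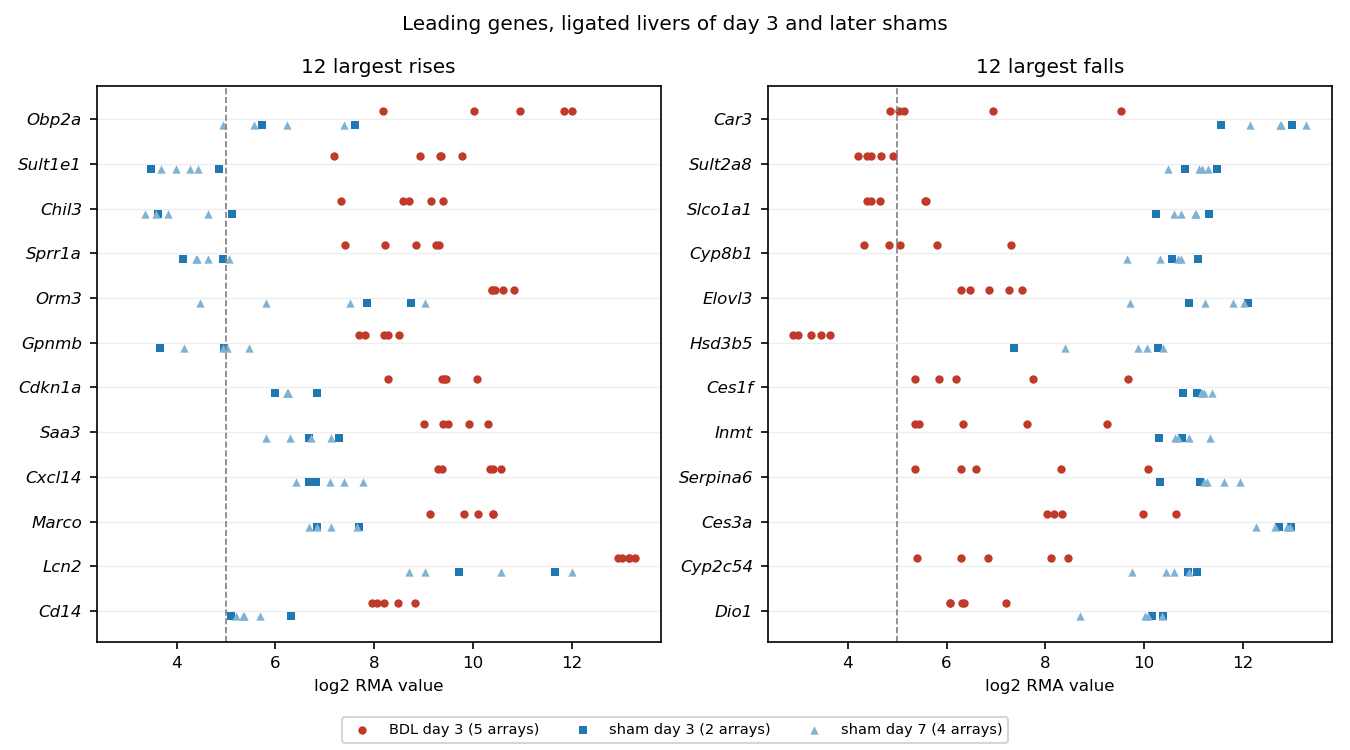
Each point is 1 array on a horizontal axis of log2 RMA values, for the 12 largest rises (left) and the 12 largest falls (right), ranked with group means under 5 raised to 5. Red circles are the 5 ligated livers of day 3, dark squares the 2 shams of day 3 and light triangles the 4 shams of day 7, and the dashed line marks the background level of 5. Ligated and sham points do not overlap in any row, because only genes without overlap were ranked. Lcn2 varies mainly among the shams, and Car3, Ces1f, Inmt and Serpina6 vary mainly among the ligated livers.

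Of the 12 largest falls by the same rule, 3 genes are on the list of male-biased genes described below: Slco1a1, Elovl3 and Hsd3b5. Sult2a8, a bile acid sulfotransferase of mouse liver, read 4.47, 4.68, 4.21, 4.39 and 4.91 in the ligated livers, all at background, and 10.49 to 11.48 (median 11.14) in the shams. The difference was -6.53 ± 0.22 (limma adjusted p = 9.2e-19), or -6.06 down to the background level. Slco1a1, an organic anion uptake carrier, read 5.57, 5.59, 4.48, 4.66 and 4.39 against a sham range of 10.23 to 11.32 (median 10.88). It differed by -5.89 ± 0.30 (limma adjusted p = 1.7e-14). Hsd3b5, a steroid dehydrogenase of male mouse liver, was at 2.9 to 3.64 in the ligated livers and at 7.37 to 10.38 in the shams. Both Sult2a8 and Slco1a1 fell to background or close to it in each of the 5 ligated livers.

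Car3, a carbonic anhydrase abundant in hepatocytes, fell just as far on average but not evenly. Its ligated values were 6.95, 9.52, 5.14, 4.85 and 5.04, against 11.56 to 13.28 (median 12.75) in the shams. The difference was -6.27 ± 0.58 (limma adjusted p = 5.5e-09), with replicates 1 and 2 higher than the other three. Ces1f, a carboxylesterase, read 7.75, 9.67, 5.84, 6.2 and 5.36 against a sham range of 10.79 to 11.37, and Inmt, a methyltransferase, read 7.62, 9.25, 6.34, 5.36 and 5.45 against 10.29 to 11.34. Ligated replicate 2 was the highest, and replicate 1 the next, for these 3 genes and for Serpina6. The remaining falls among the 12 largest were those of Cyp8b1 (-5.04), Elovl3 (-4.41), Serpina6 (-3.92), Ces3a (-3.71), Cyp2c54 (-3.59) and Dio1 (-3.54), the last being the type 1 deiodinase that activates thyroid hormone. Mup21, a further male-biased gene, fell by 4.70, more than several of these, but by 3.27 down to the background level, and so is not among the 12. Ces, Cyp2c, Serpina and Sult genes have near-identical copies on the genome, so single members are uncertain.

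Most genes of bile acid synthesis fell. Of 16 tested genes, 10 fell and 2 rose, with a median difference of -0.53, beside 7.91% of all genes lower and 11.7% higher. These shares are also the reference for the counts of the lists below against the pooled shams. The first step of the classic pathway is catalysed by Cyp7a1, which read 10.99, 10.08, 5.74, 6.84 and 4.62 in the ligated livers and 9.81 to 11.53 (median 10.85) in the shams. Its difference was -3.10 ± 0.70 (limma adjusted p = 0.00172), but replicates 1 and 2 lay inside the sham range and only the other three lay below it. The value was -3.94 without ligated replicate 1 and -2.35 without ligated replicate 5, past the threshold both times. With only the 11 arrays in the fit, the limma adjusted p of Cyp7a1 was 0.0322. Cyp8b1, the sterol 12-hydroxylase that sets the share of cholic acid, fell in all 5 livers, to 7.3, 5.06, 4.34, 4.84 and 5.8 from a sham range of 9.65 to 11.09 (median 10.62). That difference was -5.04 ± 0.35 (limma adjusted p = 1.9e-11).

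Cyp7b1, the oxysterol hydroxylase of the alternative pathway, fell by 2.77 ± 0.23 (limma adjusted p = 1.2e-09), with ligated values of 7.64 to 8.9 and sham values of 10.18 to 11.55. Slc27a2, which links bile acids and long fatty acids to coenzyme A, fell by 0.94 ± 0.11 with no overlap. Against the direction of the list, the peroxisomal side-chain oxidase Acox2 (0.62) and the reductase Akr1d1 (0.43) were higher. Neither of these passed against the day 3 shams alone (limma adjusted p = 0.0935 for Acox2 and 0.297 for Akr1d1). Akr1d1 also missed the threshold without sham day 7 replicate 1 (adjusted p = 0.064), and likewise without sham day 7 replicate 2, sham day 3 replicate 2 or ligated replicate 1, 2 or 3.

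Uptake carriers fell as well, 5 of 8 genes with a median of -0.79, beside 7.91% of all genes lower. Slc10a1, the sodium-dependent bile acid carrier of the hepatocyte (NTCP), read 11.71, 11.69, 11.04, 11.45 and 11.64 against a sham range of 11.63 to 12.37 (median 12.17). The difference was -0.61 ± 0.19 (limma adjusted p = 0.025), and the lowest sham, day 7 replicate 1, lay within the ligated values. Without that array it was -0.70 (adjusted p = 0.0104), and without sham day 3 replicate 1 it was -0.56 (adjusted p = 0.0554), and it also missed the threshold without ligated replicate 3 or 4. Slc22a7, an organic anion carrier, fell by 1.55, and Slc22a30 fell by 2.07 to a level at background. Slc10a2, the bile acid carrier of cholangiocytes and ileum (ASBT), went the other way: 9.03, 8.61, 9.08, 9.03 and 8.09 in the ligated livers and 7.06 to 8.29 (median 7.4) in the shams. It rose by 1.26 ± 0.19 (limma adjusted p = 1.5e-05), and sham day 7 replicate 1 was the one sham within the ligated range.

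Canalicular export was split, with 3 genes higher and 3 lower of 10, beside 11.7% of all genes higher and 7.91% lower. The multidrug pump Abcb1a read 7.89, 8.58, 8.35, 8.7 and 8.38 against 5.5 to 6.5 (median 6.14) in the shams, a rise of 2.32 ± 0.20 (limma adjusted p = 1.6e-09). The lipid flippase Atp8b1 rose by 0.71, while Slc47a1, a cation exporter, fell by 1.01 and Abcg2, a sulfate conjugate pump, by 0.52. Abcb11, the bile salt export pump, did not pass at 0.27 ± 0.19 (limma adjusted p = 0.376), and its ligated values of 10.67 to 12.16 spanned the sham range of 10.52 to 11.49. The fall of Abcg2 missed the threshold in 14 of 24 alternative settings. The number of lower canalicular genes was 1 without sham day 3 replicate 1, sham day 7 replicate 2, 3 or 4, or ligated replicate 1, 4 or 5. On the basolateral side, 3 of 5 exporters rose: Abcc5 (0.72), Abcc1 (0.52) and Abcc3 (0.37). Against the day 3 shams alone only Abcc1 passed as higher, with limma adjusted p = 0.0874 for Abcc5 and 0.496 for Abcc3. Abcc4, the basolateral pump for bile acids and cyclic nucleotides, was at 0.35 ± 0.13 (limma adjusted p = 0.0668), and Abcc6 fell by 0.74. Without sham day 7 replicate 1, Abcc3 was at 0.31 (adjusted p = 0.0706) while Abcc4 passed. Abcc3 missed the threshold also without sham day 3 replicate 2 or ligated replicate 3 or 4, and Abcc4 passed also without ligated replicate 2.

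The receptors that govern these genes moved in both directions. Of 18 transcription factors, 3 were higher and 7 lower, beside 11.7% of all genes higher and 7.91% lower. Nr1h4, the bile acid receptor FXR, read 9.14, 9.02, 8.87, 8.92 and 9.0 against 9.36 to 9.98 (median 9.66), a fall of 0.69 ± 0.11 (limma adjusted p = 1.8e-05). Its target Nr0b2, the repressor SHP, rose by 1.14 ± 0.31 (limma adjusted p = 0.00756), from a wide sham range of 7.07 to 9.79 that overlapped the ligated 9.21 to 9.79. Nr0b2 did not pass against the day 3 shams alone (1.13, limma adjusted p = 0.0994). Without both control arrays that stood apart it was at 0.88 (adjusted p = 0.0671). Nr1i2, the xenobiotic receptor PXR, was uniform at 10.02 to 10.15 in the ligated livers and rose by 1.08 ± 0.12 (limma adjusted p = 1.9e-07). Cebpa, a factor of hepatocyte differentiation, fell by 1.19 and Ppara, the receptor driving fatty acid oxidation, by 0.97, both with no overlap. Prox1 was higher by 0.47.

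Pericentral genes, which mark the hepatocytes around the central vein, fell in 15 of 18 cases with a median of -1.06, and none rose. Cyp1a2 read 8.93, 10.42, 7.13, 7.5 and 5.53 in the ligated livers and 10.86 to 11.65 (median 11.36) in the shams, a difference of -3.41 ± 0.47 (limma adjusted p = 3.4e-06). Ligated replicates 1 and 2 were again the highest. Cyp2c29 fell by 2.74 and, when the mean of its rows was used, by 1.4, so its rows disagree in size. Glul, the glutamine synthetase of the last hepatocytes before the vein, fell by 1.29 ± 0.25 (limma adjusted p = 0.000428), with ligated values of 9.49 to 11.02 and sham values of 10.84 to 11.57. Cyp2e1 fell by 0.61 with no overlap. Over the list, ligated replicates 1 and 2 averaged 9.14 and 9.52, the other three 7.82 to 8.45, and the shams 9.73 to 10.21. In bulk liver, fewer cells of a type and less RNA per cell cannot be told apart.

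Periportal genes had no common direction, with 4 of 16 higher and 4 lower and a median of 0.17. Over all genes tested, 11.7% were higher and 7.91% lower. The urea cycle enzyme Otc fell by 0.88 ± 0.24 (limma adjusted p = 0.00767), from a sham range of 11.6 to 12.02 to ligated values of 9.92 to 11.46. Uox, the urate oxidase, fell by 0.72 and Cyp2f2 by 0.95. Cyp2f2 missed the threshold without ligated replicate 5 (adjusted p = 0.11) or replicate 4. The adhesion molecule Cdh1 rose by 0.91 ± 0.17 (limma adjusted p = 0.000276) with no overlap, and by 0.57 when the mean of its rows was used. The number of higher genes was 2 without sham day 3 replicate 2 or ligated replicate 1 or 5, and the number of lower genes was 2 without ligated replicate 4. Against the day 3 shams alone Otc, Uox and Cyp2f2 did not pass (limma adjusted p = 0.137, 0.188 and 0.168).

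Of 28 plasma proteins, 12 fell, 3 rose and 13 did not pass, with a median of -0.14. The share higher was near the 11.7% of all genes, and the share lower was above their 7.91%. Serpina6, which encodes the corticosteroid-binding globulin, read 8.31, 10.07, 6.59, 6.3 and 5.36 against 10.31 to 11.94 (median 11.23), a difference of -3.92 ± 0.50 (limma adjusted p = 1.3e-06). The lectin Mbl2 fell by 2.09, Igfals, the carrier subunit of growth factor complexes, by 1.09, and the complement component C9 by 0.96. The rises of F11 (0.39), Kng1 (0.32) and Ahsg (0.20) were small, and none of them passed against the day 3 shams alone. F11 also missed the threshold without sham day 7 replicate 1 (0.30, limma adjusted p = 0.0655) or ligated replicate 3, 4 or 5. Without ligated replicate 4, the number of higher genes was 1. Of the 9 hepatocyte markers, Serpina1a (-0.44) and Ttr (-0.30) fell and the rest did not pass.

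Sex-biased genes of the liver, which follow the pulsatile or continuous pattern of growth hormone, moved apart. Of 16 male-biased genes, 13 fell and none rose, with a median of -2.39. Elovl3, an elongase of long fatty acids, read 6.48, 7.53, 6.3, 6.85 and 7.26 against 9.72 to 12.09 (median 11.5), a difference of -4.41 ± 0.39 (limma adjusted p = 1.6e-09). Mup21, a urinary protein from a family of near-identical copies, went from a sham range of 7.59 to 9.16 to ligated values of 3.06 to 4.29, below background. Of 11 female-biased genes, 5 rose and 1 fell, with a median of 0.62. Besides Sult1e1, these included Fmo2 (2.14), a flavin monooxygenase, Cyp17a1 (1.79), a steroid hydroxylase, and Cux2 (1.10), a repressor that is female-specific in liver. Cyp17a1 overlapped the shams and was at an adjusted p of 0.157 against the day 3 shams alone.

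The female-biased list also differed among the shams. Its mean was 7.26 in sham day 3 replicate 1 and 7.17 in sham day 7 replicate 1, inside the ligated range of 7.06 to 7.66, and 5.86 to 6.24 in the other four. The male-biased list had no such overlap, with 7.70 to 8.19 in the ligated livers and 9.90 to 10.94 in the shams. Cyp2a4 was the member that fell, by 1.06, and it missed the threshold without either of these sham arrays (adjusted p = 0.073 without day 3 replicate 1 and 0.0821 without day 7 replicate 1). The same held without sham day 7 replicate 2, 3 or 4 or ligated replicate 3, 4 or 5.

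Genes of fatty acid oxidation and other PPARA targets fell in 15 of 20 cases, with a median of -0.64 and no rise. Fabp1, the fatty acid binding protein of hepatocytes, read 8.13, 10.06, 7.81, 10.02 and 9.86 against 11.84 to 12.57 (median 12.52), a difference of -3.23 ± 0.34 (limma adjusted p = 4.6e-08). The omega-hydroxylase Cyp4a12a fell by 3.22, the thiolase Acaa1b by 2.47 and the pantetheinase Vnn1 by 1.67. Cyp4a14 did not pass, at -0.97 ± 0.80 (limma adjusted p = 0.458). It varied widely in both groups, with 6.1, 7.18, 7.69, 9.34 and 11.06 in the ligated livers and 7.38 to 12.83 in the shams, where day 3 replicate 1 was the highest. Of 15 genes of fatty acid synthesis, 7 fell and none rose, with a median of -0.52. Scd1, the stearoyl desaturase, read 12.81, 12.23, 11.76, 10.05 and 9.06 against 11.87 to 13.32, a difference of -1.60 ± 0.41 (limma adjusted p = 0.00569) that did not pass against the day 3 shams alone (-1.05, adjusted p = 0.278). Scd1 also missed the threshold with only the 11 arrays in the fit (limma adjusted p = 0.0591). The glucose-sensing factor Mlxipl (-1.42) and the malic enzyme Me1 (-1.28) fell too.

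Cholesterol synthesis rose, in 13 of 16 genes with a median of 1.01, and no gene fell. Lss, the lanosterol synthase, read 8.9, 9.25, 10.32, 10.19 and 10.28 in the ligated livers and 6.61 to 8.51 (median 8.0) in the shams, a rise of 1.92 ± 0.29 (limma adjusted p = 1.2e-05). The squalene epoxidase Sqle (1.52), the demethylase Cyp51 (1.36) and the synthase Hmgcs1 (1.34) rose with no overlap. Sham day 3 replicate 1 was the lowest array for these 4 genes. Without it the rises were 1.67 for Lss, 1.14 for Sqle, 1.04 for Cyp51 and 1.04 for Hmgcs1, all past the threshold (limma adjusted p = 2.1e-05, 0.000288, 0.00137 and 0.000745). Ligated replicates 1 and 2 had list means of 9.64 and 9.87, below the 10.29 to 10.45 of the other three and above every sham.

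**Figure D2:**
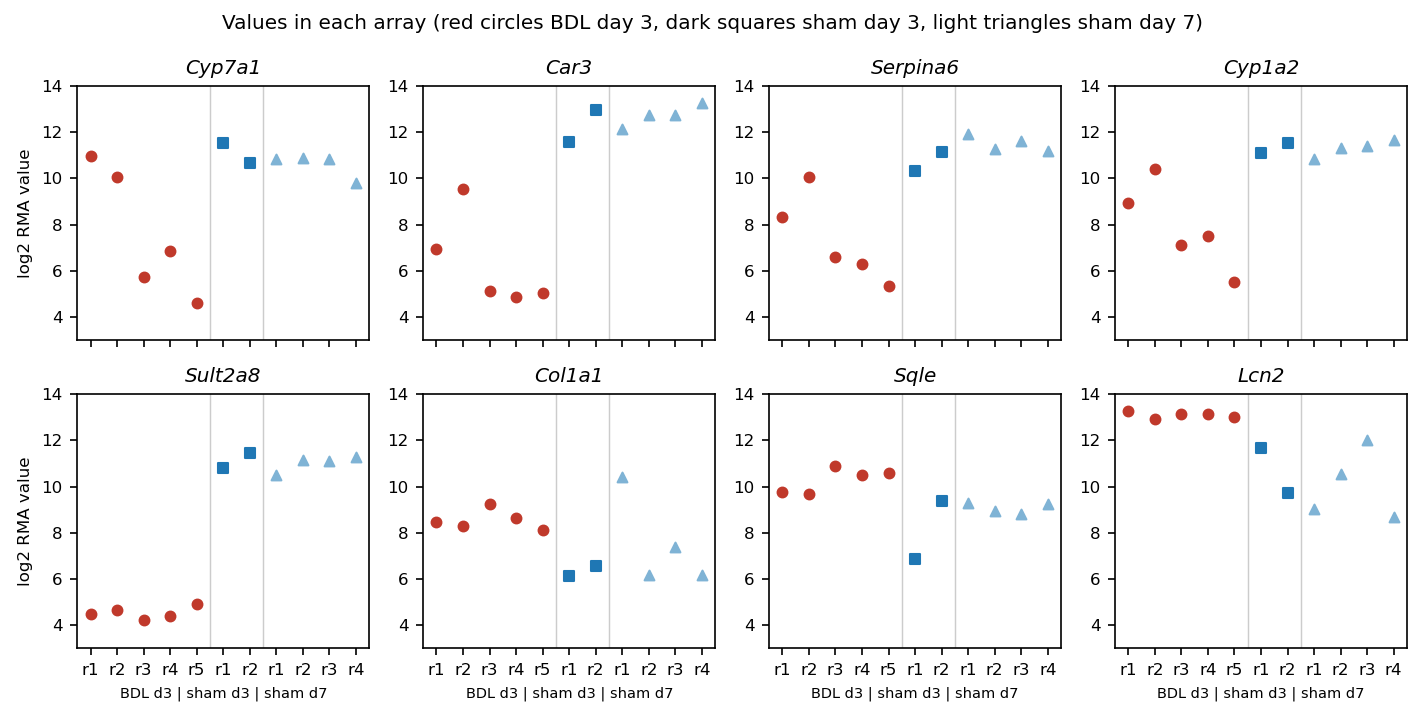
Log2 RMA values of 8 genes in each of the 11 arrays: red circles for ligated livers of day 3, dark squares for shams of day 3 and light triangles for shams of day 7. Cyp7a1, Car3, Serpina6 and Cyp1a2 are higher in ligated replicates 1 and 2 than in the other three, Sult2a8 is at background in all 5, Col1a1 is highest in sham day 7 replicate 1 (10.43) and Sqle lowest in sham day 3 replicate 1 (6.89).

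The antioxidant programme of NRF2 was higher in 8 of 14 genes, with none lower and a median of 0.43. Hmox1, the heme oxygenase, read 8.66, 8.71, 8.91, 8.81 and 8.77 against 7.23 to 7.76 (median 7.52), a rise of 1.26 ± 0.16 (limma adjusted p = 1.5e-06). The quinone reductase Nqo1 rose by 0.93 and the carbonyl reductase Cbr1 by 0.91, both with no overlap. Gstm3, a glutathione transferase, read 11.83, 12.01, 11.5, 11.14 and 8.86, so that replicate 5 alone stayed within the sham range of 8.69 to 10.0. Its rise was 1.70 overall and 2.26 without that array (adjusted p = 2.3e-05). By contrast, the unfolded protein response counted 1 riser among 17 genes, Atf3 (0.84), at a median of 0.11, a share below the 11.7% of all genes. It counted 2 without sham day 3 replicate 1 or ligated replicate 2.

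Of 13 p53 targets, 7 rose, none fell and the median was 0.41, beside 11.7% of all genes higher. Cdkn1a, the p21 inhibitor of cyclin-dependent kinases, read 9.41, 8.28, 9.38, 9.45 and 10.07 against 5.99 to 6.85 (median 6.24), a rise of 3.02 ± 0.26 (limma adjusted p = 1.6e-09). The antiproliferative gene Btg2 (1.18), the stress gene Gadd45b (1.13) and the death receptor Tnfrsf10b (0.78) were the next. The number of p53 targets that rose was 4 without sham day 3 replicate 2 or ligated replicate 5.

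Proliferation genes rose at the same time. In the list of G1 and S phase genes, 14 of 23 rose, none fell and the median was 0.55, and in the list of G2 and mitosis genes 19 of 23 rose, none fell and the median was 0.63. Ccnd1, the cyclin of G1 entry, read 8.48, 9.5, 9.18, 9.42 and 8.03 against 6.71 to 8.03 (median 7.62), a rise of 1.35 ± 0.26 (limma adjusted p = 0.000271). The replicative helicase subunits Mcm5 (1.09), Mcm6 (1.08) and Mcm2 (1.08) rose, each highest in ligated replicate 2. Mki67, the Ki-67 antigen of dividing cells, read 7.08, 7.76, 7.04, 7.62 and 6.78 against 5.8 to 6.22 (median 5.98), a rise of 1.26 ± 0.20 (limma adjusted p = 3.5e-05). The mitotic genes Anln (1.12), Top2a (1.07) and Ndc80 (0.90) rose from sham means under 5. The G2 and mitosis list averaged 4.95 to 5.39 in the shams. Some of its members may therefore have been tested only through ligated arrays. With a stricter filter, above 6 in 5 or more arrays, Anln, Top2a and Ndc80 were not tested. That filter left 8 risers in the G2 and mitosis list and 13 in the G1 and S phase list. Ligated replicate 2, which had the least fall of Car3 and Cyp1a2, had the highest list means of both groups, 7.28 and 6.18, and replicate 5 the lowest, 6.23 and 5.35. The lowest ligated means overlapped sham day 7 replicate 1, at 6.32 and 5.39. Fewer genes passed against the day 3 shams alone, 10 of the G1 and S phase list and 12 of the G2 and mitosis list, where 6.47% of all genes were called higher.

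The promoters of 3 of these genes are shown because they hold known cell cycle elements and their genes rose together at day 3. Others that rose, such as Nusap1 and Ccne1, had no match to the motifs searched for their list. They were read from the RefSeq promoter table of build GRCm38.p6, 5′ to 3′ on the gene's strand. Capitals mark TTTGGCGC, an E2F site, in Mcm6, and CCAAT boxes and the cell cycle homology element TTTGAA in Mki67 and Top2a. Matches on either strand are marked, the reverse ones reading ATTGG and TTCAAA, and these letters do not overlap one another. The stretches are chr1:128359706-128359825 on the minus strand, the 120 bases before the start of Mcm6; chr7:135716430-135716579 on the minus strand, bases 200 to 51 before the start of Mki67; and chr11:99024190-99024429 on the minus strand, the 240 bases before the start of Top2a.
Mcm6: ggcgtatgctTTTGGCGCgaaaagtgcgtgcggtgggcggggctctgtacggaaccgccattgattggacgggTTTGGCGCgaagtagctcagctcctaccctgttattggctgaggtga
Mki67: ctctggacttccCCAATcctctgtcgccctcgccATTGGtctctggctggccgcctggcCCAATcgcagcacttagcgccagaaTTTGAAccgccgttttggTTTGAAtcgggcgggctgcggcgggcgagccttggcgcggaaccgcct
Top2a: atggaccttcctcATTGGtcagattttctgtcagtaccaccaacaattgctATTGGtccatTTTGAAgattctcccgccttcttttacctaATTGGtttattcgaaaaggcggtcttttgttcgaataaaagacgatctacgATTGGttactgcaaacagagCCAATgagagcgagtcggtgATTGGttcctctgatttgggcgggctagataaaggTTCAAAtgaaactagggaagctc

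Over whole promoters of 250 bases before to 50 after the start, TTTGAA was found in 86.4% of 22 promoters of the G2 and mitosis list, in 12.1% of the promoters of genes tested and in 17.9% of all promoters. CCAAT was found in 86.4% of the same 22, in 71.4% of the 21 promoters of the G1 and S phase list and in 37.4% of all promoters. TTTGGCGC was in 23.8% of the G1 and S phase promoters and in 0.514% of all, and the second E2F form searched, TTTCCCGC, in 19% and 1.07%. Among the 1742 promoters of all genes higher at day 3, TTTGAA was in 11.7% and CCAAT in 36%, close to the shares of all genes tested. For the NRF2 list, the antioxidant response core TGACNNNGC was in 33.3% of 15 promoters and 12.4% of all. For the acute phase list, the AP-1 site TGANTCA was in 26.9% of 26 promoters and 7.81% of all. A match describes the letters in these windows and no binding was measured.

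Acute phase genes, the secreted and cytokine-driven proteins of the inflamed liver, rose in 21 of 27 cases with a median of 0.97, and none fell. Orm2, an acute phase glycoprotein, read 13.64, 13.42, 13.33, 13.47 and 13.26 against 9.08 to 11.76 (median 11.21), a rise of 2.62 ± 0.29 (limma adjusted p = 1.2e-07). The ligated list means lay close together at 11.73 to 12.16, while the shams ranged from 10.13 in day 7 replicate 4 to 11.26 in day 7 replicate 3. Among cytokines, chemokines and adhesion molecules, 9 of 24 rose and 1 fell, with a median of 0.38. Over all genes tested, 11.7% were higher and 7.91% lower. Ccl2, which recruits monocytes, read 7.0, 7.43, 6.75, 7.18 and 6.72 against 5.24 to 5.79 (median 5.67), a rise of 1.45 ± 0.24 (limma adjusted p = 3.6e-05). The adhesion molecules Selp (1.33) and Vcam1 (1.19) rose with no overlap. Il1b, the inflammatory cytokine IL-1 beta, was the gene that fell, with 5.58, 5.58, 4.2, 5.1 and 4.64 against 5.36 to 6.69 (median 6.0). Its difference was -0.97 ± 0.32 (limma adjusted p = 0.0273), which missed the threshold without sham day 3 replicate 1 (adjusted p = 0.0522), and likewise without sham day 3 replicate 2, sham day 7 replicate 2 or ligated replicate 3 or 5.

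Interferon-stimulated genes counted no riser among 17, with 2 lower and a median of -0.40. Over all genes tested, 11.7% were higher and 7.91% lower. Rtp4 fell by 0.83 with no overlap and Ifit1 by 0.89 with overlap. Neither passed against the day 3 shams alone (limma adjusted p = 0.173 for Rtp4 and 0.437 for Ifit1).

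**Figure D3:**
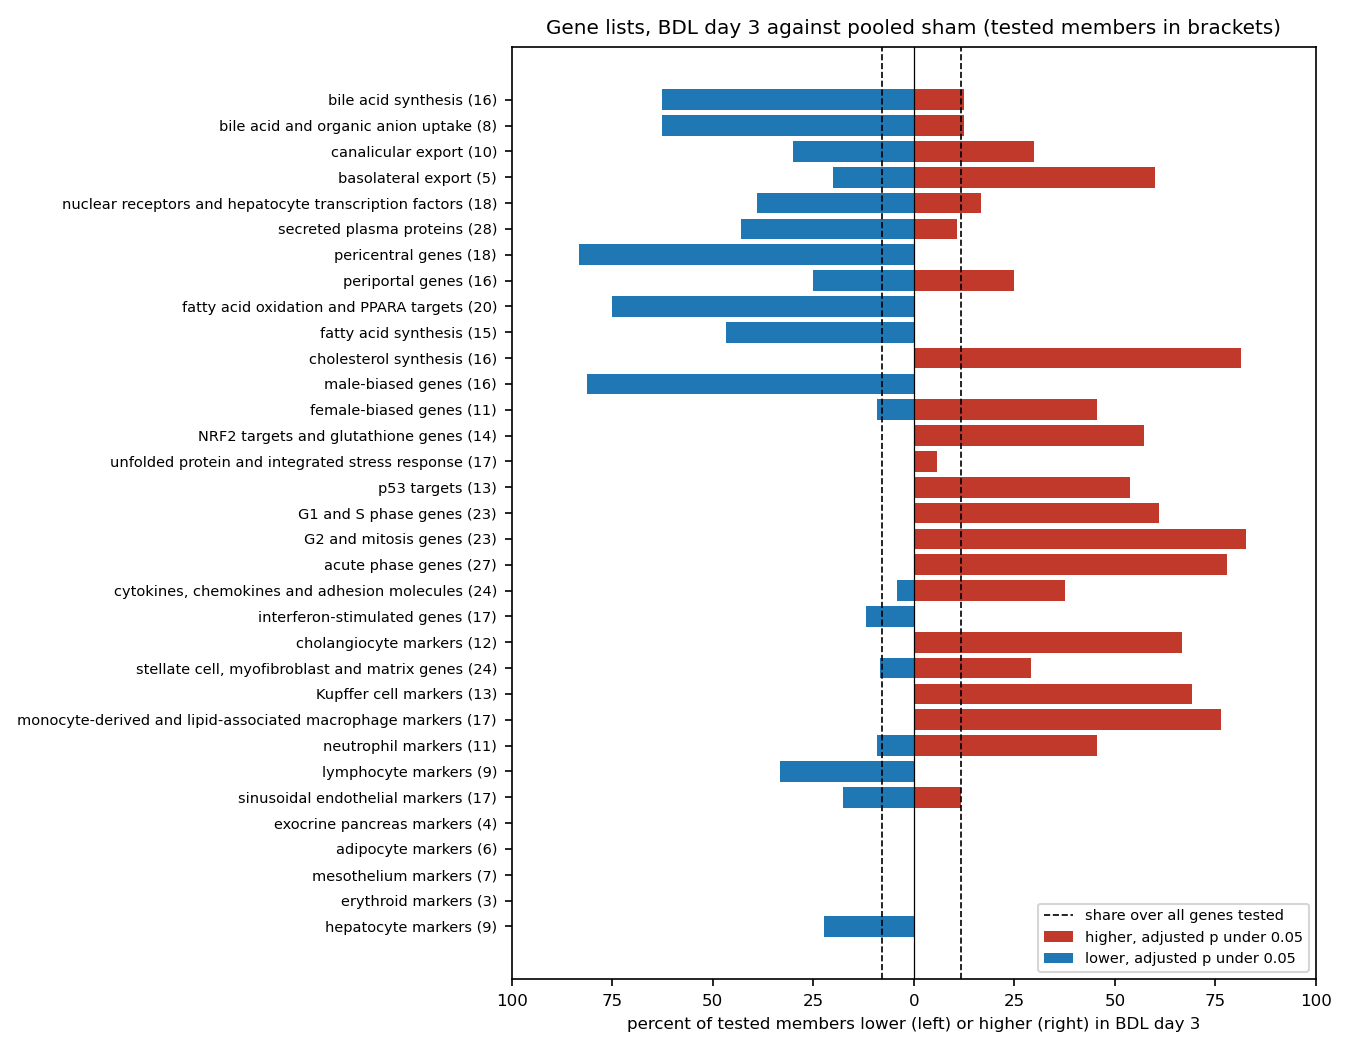
For each of 33 gene lists, bars show the percent of tested members higher (red, right) or lower (blue, left) in ligated livers of day 3 than in the pooled shams at a limma adjusted p under 0.05, with the number of tested members in brackets. Dashed lines mark the shares over all genes tested, 7.91% lower and 11.7% higher. Pericentral, male-biased and fatty acid oxidation genes lie far to the left, and mitosis, cholesterol synthesis and acute phase genes far to the right.

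Macrophage markers rose in both lists. Of 13 Kupffer cell markers, 9 rose, none fell and the median was 0.62. Against the day 3 shams alone 4 of them passed, where 6.47% of all genes were called higher. Against the pooled shams without ligated replicate 3, the number was 6. Marco read 9.13, 9.81, 10.41, 10.09 and 10.4 against 6.68 to 7.69 (median 6.99), a rise of 2.83 ± 0.24 (limma adjusted p = 1.2e-09), and the complement gene C1qb rose by 1.05. Cd163, a hemoglobin scavenger receptor, read 7.5, 7.47, 8.69, 8.97 and 8.75 and Cd5l, a macrophage survival factor, 9.0, 9.79, 9.87, 9.98 and 9.29. For Cd163 replicates 1 and 2 lay inside the sham range of 6.87 to 7.66. Neither gene passed against the day 3 shams alone (limma adjusted p = 0.0675 for Cd163 and 0.125 for Cd5l). Of 17 markers of monocyte-derived and lipid-associated macrophages, 13 rose, none fell and the median was 1.01. Gpnmb read 8.2, 7.7, 7.81, 8.5 and 8.28 against 3.66 to 5.46 (median 4.94), a rise of 3.40 ± 0.26 (limma adjusted p = 1.2e-10). The lysosomal proteins Cd68 (1.77) and Cd63 (1.52) rose with no overlap. The list means were 6.96 to 7.33 in the ligated livers and 5.68 to 6.12 in the shams.

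Neutrophil markers were higher in 5 of 11 genes and lower in 1, with a median of 0.60. The share lower was near the 7.91% of all genes, of which 11.7% were higher. With the stricter filter, 2 neutrophil markers were higher and 0 lower. Mmp8, the neutrophil collagenase, read 5.52, 4.9, 5.15, 6.0 and 5.97 against 4.02 to 4.75, a rise of 1.21 ± 0.20 (limma adjusted p = 4.0e-05). Il1r2 (1.06) and Cxcr2 (0.68) also rose, from sham levels near or under background, and Retnlg (1.37) passed with both group means under background. Elane, a granule protease made in the marrow, was lower by 0.37 at background level, and missed the threshold without sham day 3 replicate 1, sham day 7 replicate 2 or 4, or ligated replicate 1 or 2. Of 9 lymphocyte markers, 3 fell, none rose and the median was -0.40. These were Cd3e (-0.69), Cd4 (-0.57) and Cd79a (-0.51), of T and B cells, all near a log2 value of 5, and none of the 3 passed against the day 3 shams alone. Cd4 also missed the threshold without sham day 3 replicate 1 (limma adjusted p = 0.0538). Cd3e missed it without both control arrays that stood apart (adjusted p = 0.085). The number of lymphocyte markers that fell was 0 with the stricter filter. It was also 0 without sham day 7 replicate 2 or ligated replicate 3, and 1 without ligated replicate 4.

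Bile duct markers rose in 8 of 12 genes with a median of 0.70, and none fell. Sox9, a factor of ducts and progenitors, read 8.41, 8.4, 9.09, 8.61 and 8.9 against 6.85 to 8.04 (median 7.2), a rise of 1.36 ± 0.22 (limma adjusted p = 3.8e-05). Krt19, the duct keratin, read 6.37, 6.13, 6.66, 6.35 and 5.97 against 5.31 to 5.65 (median 5.51), a rise of 0.80 ± 0.11 (limma adjusted p = 5.7e-06), and all 5 lay above the shams. The mucin Muc1 (1.36) and the adhesion protein Epcam (0.98) rose, Epcam with overlap. Cd24a rose by 1.51, or by 0.95 as the mean of its rows. Krt7 rose by 0.52 ± 0.17 (limma adjusted p = 0.034), and missed the threshold without ligated replicate 1 (adjusted p = 0.0598) or replicate 5 (adjusted p = 0.0787), and likewise without ligated replicate 4 or sham day 7 replicate 2 or 3.

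Counts of matrix genes depended on single arrays, sham day 7 replicate 1 most of all. Of 24 genes of stellate cells, myofibroblasts and matrix, 7 rose and 2 fell, with a median of 0.41. The share lower was near the 7.91% of all genes, of which 11.7% were higher. Without that array 13 rose, without sham day 3 replicate 1 the number was 4, and without both 12. The number was 3 without sham day 3 replicate 2, sham day 7 replicate 2 or 4, or ligated replicate 3 or 4. Col1a1, the main fibrillar collagen chain, read 8.46, 8.3, 9.24, 8.65 and 8.11 in the ligated livers. In the shams it read 6.12 and 6.56 at day 3 and 10.43, 6.17, 7.38 and 6.16 at day 7, so 1 sham lay above all ligated livers and the other five below them. The rise was 1.42 ± 0.48 (limma adjusted p = 0.0343) with that array and 2.07 without it (adjusted p = 1.4e-06). It missed the threshold without any 1 of 7 other arrays: both day 3 shams, sham day 7 replicates 2 and 4, and ligated replicates 1, 3 and 4. With every array kept, Col1a1 also missed it with only the 11 arrays in the fit (limma adjusted p = 0.144). The same held against the day 7 shams alone (adjusted p = 0.194) and with the other variance model (adjusted p = 0.0563).

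The other collagens and contractile genes showed the same array. Col3a1 rose by 1.09 (limma adjusted p = 0.0233), and by 1.52 without sham day 7 replicate 1 (adjusted p = 1.7e-05). Col3a1 missed the threshold without the same arrays as Col1a1, apart from ligated replicate 1. It also missed it with only the 11 arrays in the fit (limma adjusted p = 0.103) and against the day 7 shams alone (adjusted p = 0.139). Col1a2 was at 0.86 (adjusted p = 0.126) with it and at 1.41 without it (adjusted p = 1.0e-05). For Acta2, the smooth muscle actin of myofibroblasts, the values were 0.47 (adjusted p = 0.198) and 0.75 (adjusted p = 0.00421). In that sham the mesothelium markers were highest too, and their part in its collagen values was not tested. Col4a1, a basement membrane chain, and Timp1, the inhibitor of matrix proteases, rose by 0.72 and 1.23 with every array kept. The sign of the 4 genes Col1a1, Col1a2, Col3a1 and Acta2 was positive against the day 3 shams alone, where Col1a1 was 2.21 higher (adjusted p = 0.0226). Reln and Ecm1, both made by quiescent stellate cells, fell by 0.61 and 0.46. Neither passed against the day 3 shams alone (limma adjusted p = 0.169 for Reln and 0.205 for Ecm1). Without both control arrays that stood apart, Ecm1 was at -0.37 (adjusted p = 0.0911).

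Sinusoidal endothelial markers had no common direction, with 2 of 17 higher and 3 lower and a median of 0.04. The share higher was near the 11.7% of all genes, of which 7.91% were lower. Dnase1l3, a secreted nuclease, read 7.45, 7.52, 8.0, 7.96 and 6.68 against 8.38 to 8.74 (median 8.63), a difference of -1.06 ± 0.22 (limma adjusted p = 0.000859). Kdr, the receptor for vascular endothelial growth factor, fell by 0.75 with no overlap. The scavenger receptors Stab1 (0.60) and Lyve1 (0.69) were higher, Stab1 with no overlap. Lyve1 missed the threshold without sham day 3 replicate 2, sham day 7 replicate 3 or 4, or ligated replicate 1, 3, 4 or 5. Markers of tissues that could be caught in a liver sample gave no call: 4 tested genes of exocrine pancreas, 6 of adipocytes, 7 of mesothelium and 3 of erythroid cells. Leaving out 1 array gave 1 lower pancreas gene (without sham day 7 replicate 2) and 1 lower adipocyte gene (without sham day 7 replicate 1 or 3). Their list means ran from 5.20 to 5.28 for pancreas in the ligated livers and 5.22 to 5.48 in the shams, and for adipocytes from 5.67 to 6.56 and 5.55 to 6.72.

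**Figure D4:**
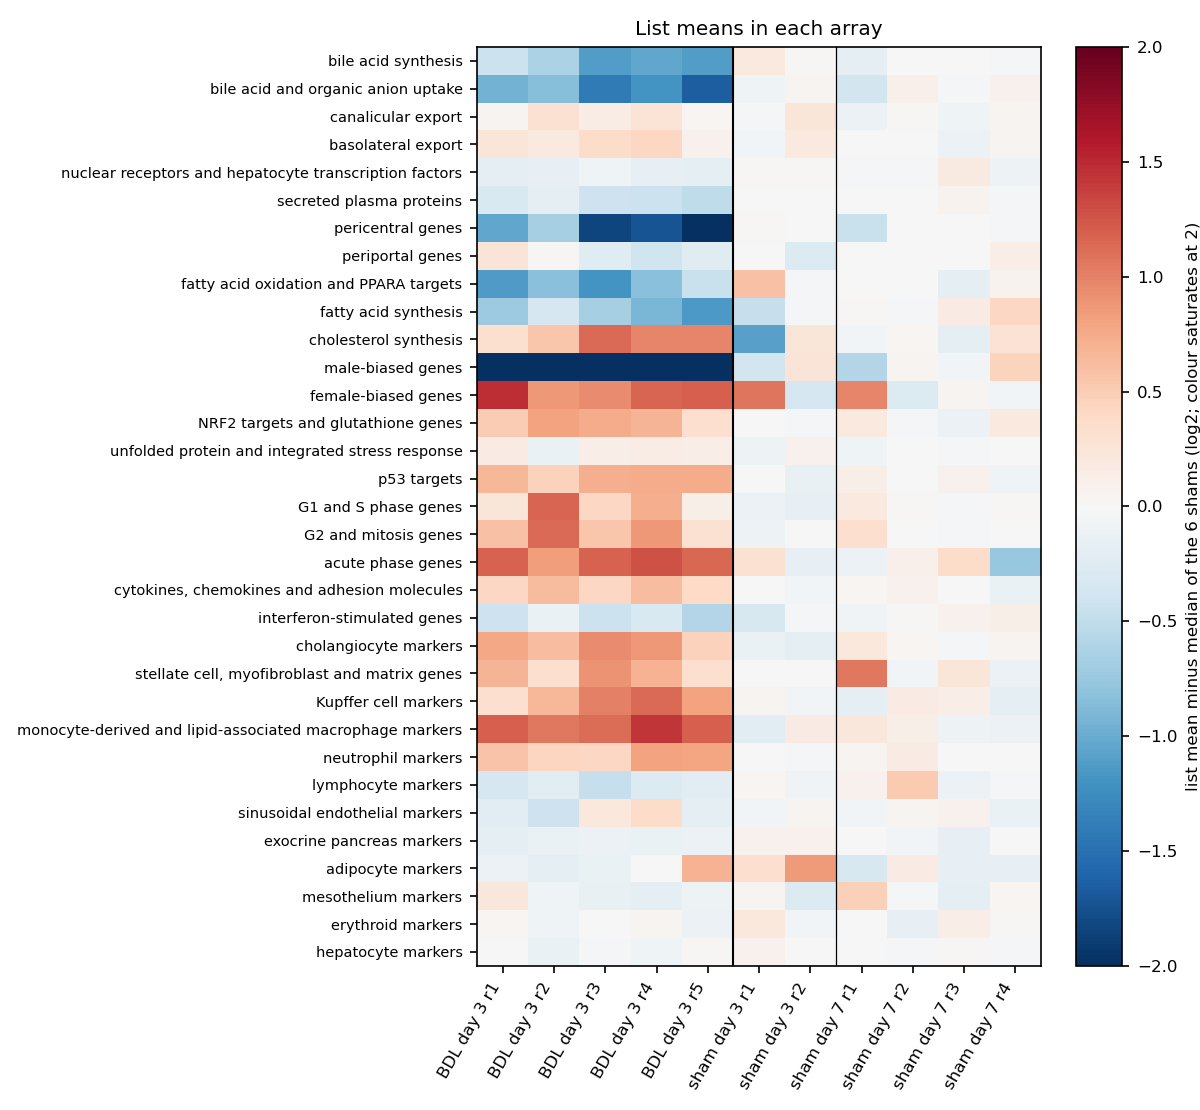
Colour shows, for each gene list (rows) and array (columns), the list mean minus the median of the 6 shams on the log2 scale, saturated at 2 in either direction. Ligated livers of day 3 are left of the thick line, then the shams of days 3 and 7. Male-biased genes are uniformly low in the 5 ligated livers, pericentral genes are less low in replicates 1 and 2, and the matrix list is raised in sham day 7 replicate 1.

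The 8 genes with the largest spread among the 5 ligated livers, predicted genes passed over, were Cyp7a1, Car3, Cyp4a14, Serpina6, Cyp1a2, Cyp2b10, Ces1f and Inmt. Replicates 1 and 2 held the 2 highest values for 7 of these 8 genes, the exception being Cyp4a14, where replicates 5 and 4 were highest. The genes were picked by their spread in these same 5 arrays, so this count is a description and no test. Cyp2b10, a cytochrome induced through the receptor CAR, was high in replicate 1 alone, at 8.25 against 3.73 to 5.03 in the other four and 3.63 to 5.61 in the shams. Its difference did not pass, at 0.62 ± 0.57 (limma adjusted p = 0.517). The 5 values of Sult2a8 lay between 4.21 and 4.91 and those of Slco1a1 between 4.39 and 5.59, so these large falls were shared by all ligated livers.

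Ligated livers of day 3 were also set against those of other days in the same fit. Compared with day 1, 1797 genes (12.2%) were higher and 963 (6.55%) lower at day 3. Compared with day 7, 161 genes (1.1%) were higher and 710 (4.83%) lower, and compared with day 21, 288 (1.96%) and 1116 (7.59%). Mki67 had a mean of 5.52 at day 1, 7.26 at day 3, 7.63 at day 7 and 6.50 at day 21, and the step from day 1 to day 3 passed (limma adjusted p = 5.3e-06) while that to day 7 did not (adjusted p = 0.361). Krt19 stood at 5.62, 6.30, 6.14 and 6.49 on these days. Cyp8b1 had means of 5.16 at day 1 and 5.47 at day 3 (limma adjusted p = 0.586), and of 8.73 and 7.33 on days 7 and 21, both higher than at day 3 (adjusted p = 5.5e-06 and 0.000978). Cyp7a1 was lower at day 1 (4.29) than at day 3 (7.66; limma adjusted p = 0.00213). Col1a1 had means of 6.72 at day 1, 8.55 at day 3, 9.60 at day 7 and 10.25 at day 21, and day 3 differed from day 1 (limma adjusted p = 0.0108) and day 21 (adjusted p = 0.0273) but not past the threshold from day 7 (adjusted p = 0.245).

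**Figure D5:**
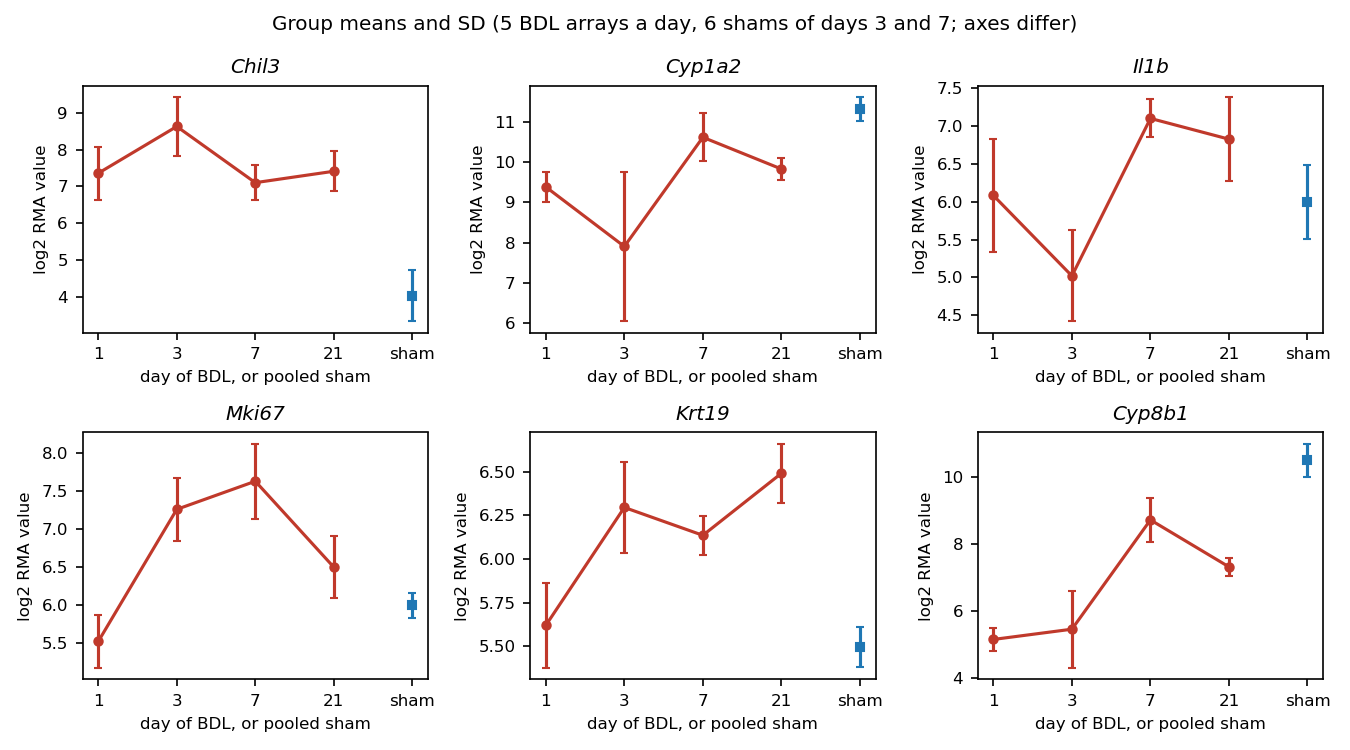
Points are group means and bars SDs of log2 RMA values for 6 genes, with 5 ligated livers a day (red, in order of day and not to scale) and the 6 pooled shams of days 3 and 7 (blue). The vertical axes differ between panels and do not start at 0, and the line joins groups of different animals. Chil3 is highest and Cyp1a2 and Il1b lowest at day 3, Mki67 and Krt19 are raised from day 3 on, and Cyp8b1 is low on days 1 and 3.

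No gene met the stricter rule of being higher, or lower, at day 3 than in the pooled shams and at each of days 1, 7 and 21. In limma the lowest adjusted value of the largest of the 4 p-values was 0.197, and without adjustment 86 genes (0.585%) passed as highest and 92 (0.626%) as lowest. Without ligated replicate 2, 6 genes passed after adjustment.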

How the data were processed

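Whole liver RNA was hybridised to 1 array per mouse. The authors deposited log2 values made with RMA in oligo 1.52.0, per the submitters' processing notes. This method removes background and gives all arrays the same distribution of values. The labels' protocols name a different Affymetrix array from that of the platform annotation (Mouse Gene 2.0 ST), which the row identifiers match and from which names were taken. The sets of arrays normalized together and the genome build are not given in the sources used here. Of 41345 rows, 25335 were annotated, 23521 with 1 symbol, 1814 with several and 16010 unnamed here. RefSeq (GRCm38.p6) held 23328 of the 1-symbol rows by gene ID and gave updated symbols. The row of highest mean was kept for each of 22180 genes. The test covered the 14699 with values above 5 in 3 or more arrays.

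A model with 1 mean per group, the shams of days 3 and 7 sharing 1 mean, was fitted with lmFit and eBayes (limma 3.58.1, R 4.3.3). The median SE was 0.125. On simulated data with 200 of 14699 genes changed, 59.7% were recovered at a log2 change of 0.5, 97% at 1 and 100% at 2. Of the calls made there, 5% were false. Whether these rates hold for the real arrays was not tested. In the real arrays 2882 genes were changed, and spread could differ between groups. The SD of Cyp7a1 was 2.76 in the ligated livers and 0.55 in the pooled shams. The members, the 33 gene lists, the motifs and the alternatives were chosen with earlier results of these data known. Named are the 12 largest rises and falls among changed genes without overlap between groups, ranked after raising group means under 5 to 5, up to 4 changed members of a list with those against its majority, 25 genes always given and the 8 of largest spread among ligated livers. Predicted genes were passed over for the first and last. Alternatives were other control groups, arrays in the fit, filters, row rules, scalings, variance model and leaving out each array. Slc51b, Spp1 and Saa1 are not analysed here.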

Additional observations from a re-analysis of the deposited data

Results flagged for a closer look

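Each named gene was checked for a sample far from the others of its group, among the 5 ligated livers and the 6 pooled shams. Of 276 pairs of gene and group, 35 were marked, where chance marks about 1 in 20 groups. Sham day 7 replicate 1 accounted for 13, sham day 3 replicate 1 for 9, ligated replicate 2 for 5, ligated replicate 1 for 3, ligated replicate 5 and sham day 3 replicate 2 for 2 each, and sham day 7 replicate 2 for 1.

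Sham day 7 replicate 1 stood above the other shams in matrix genes: Col1a1 at 10.43 (others 6.12 to 7.38), Col1a2 at 9.36 (5.50 to 6.87), Col3a1 at 9.23 (6.38 to 7.31), Acta2 at 9.16 (7.31 to 7.74) and Col4a1 at 7.31 (6.60 to 6.81). It was also the highest sham for Mbl2 at 10.61 (9.88 to 10.02), Mcm6 at 6.14 (5.49 to 5.68) and Retnlg at 4.56 (2.87 to 3.49). It was the lowest sham for Dio1 at 8.71 (10.02 to 10.38), Slc22a7 at 6.07 (7.82 to 8.30), Abcg2 at 7.22 (7.80 to 8.14), Slc10a1 at 11.63 (12.11 to 12.37) and Glul at 10.84 (11.42 to 11.57). For these last 5 genes, the matrix genes, Mcm6 and Retnlg it lay on the side of the ligated livers. For Mbl2 it lay on the other side.

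Sham day 3 replicate 1 was the lowest sham for the cholesterol genes Lss at 6.61 (7.88 to 8.51), Sqle at 6.89 (8.82 to 9.37), Cyp51 at 7.58 (9.30 to 9.72) and Hmgcs1 at 8.90 (10.33 to 11.12). It was also the lowest for Fabp1 at 11.84 (12.46 to 12.57), Mcm2 at 4.92 (5.53 to 5.78), Rtp4 at 7.49 (7.97 to 8.22) and Abcb11 at 10.52 (11.18 to 11.49), and the highest for Cdkn1a at 6.85 (5.99 to 6.26). Sham day 3 replicate 2 was the lowest for Cyp2a4 at 7.09 (8.77 to 9.48) and Il1r2 at 4.14 (4.72 to 5.04). Sham day 7 replicate 2 was the highest for the B cell gene Cd79a at 5.87 (4.93 to 5.13).

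Among the ligated livers, replicate 2 was the highest for Dio1 at 7.21 (6.06 to 6.36), Igfals at 7.82 (6.59 to 6.78), Atf3 at 7.79 (7.04 to 7.09) and Ifit1 at 6.31 (5.47 to 5.59), and the lowest for Acox2 at 10.14 (10.47 to 10.54). Replicate 1 was the highest for Cyp2b10 at 8.25 (3.73 to 5.03), Cyp17a1 at 10.85 (9.36 to 9.65) and Cd4 at 5.62 (4.79 to 4.93). Replicate 5 was the lowest for Gstm3 at 8.86 (11.14 to 12.01) and Reln at 6.82 (7.63 to 7.84).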

How the results depend on the processing

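Over 24 alternative settings, 93 of the 131 changed named genes kept their direction and passed in each, and 106 when the setting with the day 3 shams alone is set aside. With those 2 shams as control, 1493 genes were changed, 951 higher and 542 lower. With only the 11 arrays in the fit, so that no other group entered the spread, 2821 genes were changed. Of the 131 named genes, 8 then missed the threshold: Ahsg, Cd4, Col1a1, Col3a1, Cyp2a4, F11, Lyve1 and Scd1. Leaving out 1 array gave 2283 to 2984 changed genes, 1352 to 1773 higher and 931 to 1211 lower. For the day 3 against the day 7 shams it gave 0 to 35 genes, and for genes highest or lowest at day 3 among all days 0 to 6. Leaving out sham day 3 replicate 1 and sham day 7 replicate 1 together, added after seeing the data, gave 36 genes between the sham days. The sign turned for Alb with cyclic loess (-0.0066), for Cyp4a14 without both these arrays (0.395) and for Cyp2b10 without ligated replicate 1 (-0.137), none of them past the threshold; the cause was not tested. Leaving out 1 array gave Cyp4a14 differences from -1.66 to -0.251, and Cyp2b10 was at 1.06 without both arrays. With all 9 shams as control, including those of day 1, Reln was at -0.403 (limma adjusted p = 0.093), Ecm1 at -0.189 (adjusted p = 0.455) and Kdr at -0.501 (adjusted p = 0.0448). Against the day 3 shams alone Epcam was at 1.48 and Cd4 at -0.272 (adjusted p = 0.594), and without both arrays Cxcr2 was at 0.452 (adjusted p = 0.0521). No paired analysis was possible because the replicate numbers follow the order of accessions and pair no animals. Genes with means under 5 have no reliable size.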

Other observations

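Some genes had their highest or lowest mean at day 3, though none of them passed the adjusted rule over all 4 comparisons, and they were chosen after their values were seen. Nampt, which makes the NAD precursor, had a mean of 10.13 at day 3, against 8.47 in the pooled shams, 9.23 at day 1, 8.93 at day 7 and 9.10 at day 21. Ppargc1a, a coactivator of mitochondrial and gluconeogenic genes, was at 8.50, against 7.30, 7.18, 7.58 and 7.64 in the same order. Slc10a6, a carrier of sulfated steroids, was at 5.90, against 4.54, 4.95, 4.87 and 5.01, the shams and day 1 and 7 means lying at background. Cyp17a1 was at 9.80, against 8.01, 8.28, 8.36 and 7.96.

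On the low side, Cyp1a2 was at 7.90 at day 3, against 11.31, 9.38, 10.61 and 9.82. Ugt2b1, a glucuronosyltransferase from a family of near-identical copies, was at 8.81, against 12.17, 9.70, 11.02 and 9.79. Gbp10, an interferon-induced GTPase, was at 6.61, against 8.11, 7.82, 8.12 and 7.64. Il1b was at 5.02, against 6.00 in the shams, 6.08 at day 1, 7.10 at day 7 and 6.83 at day 21, and the differences from days 1, 7 and 21 each passed when tested alone (limma adjusted p = 0.0241, 0.000378 and 0.000481).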
